A study of Mus musculus with 9 samples.

Results

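The miRNAs described here are the mature arms of the miR-379 to miR-410 cluster, a group of hairpins that lie close together in the imprinted Dlk1-Dio3 domain of mouse chromosome 12. They were chosen by name, from 35 hairpin numbers, with earlier results of these data known. The count tables held 70 arms of these hairpins among 1915 mature miRNAs. Of the 70 arms, 23 exceeded 32 counts in 1 or more libraries, the study's criterion for an expressed miRNA, as did 304 miRNAs of the whole series. The study compared tibialis anterior (TA) muscle of 4 control mice (C1 to C4) with that of 5 mice bearing tumors of Lewis Lung Carcinoma (LLC), a mouse lung carcinoma cell line (L1, L2, L3, L5 and L6), to profile small RNAs in cancer cachexia, the wasting that accompanies a tumor. Control mice received PBS under the skin of each flank, and LLC mice received 750000 LLC cells in PBS in each flank. Muscles were taken 22 days later, and each library came from 1 mouse. The sample labels name C57BL/6J mice aged 10 weeks, whereas the series description names C57BL/10 male mice aged 8 weeks, and which is right cannot be told apart from these sources. Control and LLC mice shared strain, site of injection and muscle, and neither carried an engineered allele. A further LLC mouse, L4, was left out by the authors and was not analysed here.

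MicroRNAs are cut from hairpin precursors, each of which can give a 5p and a 3p arm, and a mature arm pairs with target mRNAs mainly through its seed, bases 2 to 8. The Dlk1-Dio3 domain expresses its noncoding RNAs, among them Meg3, Rian and Mirg, from the maternal chromosome, and its miRNAs are thought to be cut from one long transcript. The cluster is known for high levels in the embryo, placenta and brain and low levels in most adult tissues, and in muscle the domain is known from the callipyge sheep and from MEF2A, a muscle transcription factor that regulates its miRNAs.

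The mature sequences below are those, where the RefSeq table held them, of the most abundant arms and of the arms whose levels differed most between the groups, with the seed in capitals, 5′ to 3′, from that table (GRCm38.p6), in the order of their hairpins.
miR-379-5p: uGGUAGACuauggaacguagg
miR-379-3p: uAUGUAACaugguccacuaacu
miR-411-5p: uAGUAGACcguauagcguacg
miR-411-3p: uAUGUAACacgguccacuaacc
miR-376b-5p: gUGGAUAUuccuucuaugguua
miR-376a-5p: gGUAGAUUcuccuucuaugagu
miR-300-3p: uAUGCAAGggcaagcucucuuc
miR-381-3p: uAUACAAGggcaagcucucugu
miR-382-5p: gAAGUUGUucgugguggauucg
miR-541-5p: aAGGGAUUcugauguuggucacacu
miR-409-3p: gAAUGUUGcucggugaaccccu
miR-369-3p: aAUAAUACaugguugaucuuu
miR-410-3p: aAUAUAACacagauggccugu

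The RefSeq table held the mature sequence of 21 of the 23 expressed arms, which had 20 distinct seeds and were 21 to 25 nt long. Only miR-379-3p and miR-411-3p among the expressed arms shared a seed. Counted from the 5′ end of miR-379-3p, they differed at U10C and U22C, both outside the first 8 bases in which the authors allowed no mismatch, so a read with errors could be counted at either. miR-300-3p differed from miR-381-3p at G4A, U21G and C22U, and G4A lies in the seed. The miR-376 hairpins are known for editing of adenosine to inosine, which sequencing reads as G. A read changed in its first 8 bases is not counted at its own entry, and how many reads were lost or moved in this way was not tested. The entries miR-376b-5p and miR-376c-5p, which differ at G19U only, had 107 to 225 and 0 to 2 counts per library. None of the 23 arms had the same counts as another miRNA in all libraries. The seeds of 5 arms (miR-411-5p, miR-299a-3p, miR-329-3p, miR-495-3p and miR-410-3p) also occurred in miRNAs that are not among the 70 arms.

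The 35 hairpins span 34736 bp of the plus strand, chr12:109709060-109743795 (GRCm38), from Mir379 to Mir410. In the GENCODE annotation 23 of them lie outside annotated genes, from Mir379 to Mir544, and the other 12, from Mir382 on, lie within the noncoding gene Mirg (chr12:109729764-109749460), 8 in exons and 4 in introns. Expressed arms came from 19 hairpins, of which 4 (Mir299a, Mir369, Mir379 and Mir411) had both arms above the minimum, and 16 hairpins had none. There were 10 expressed 5p arms and 13 expressed 3p arms. Of the 47 other arms, 12 were at 0 in every library and 35 had counts below the minimum, which made up 1.67% of the 95423 counts of the cluster. Neither arm of Mir758 was counted in any library. The expressed arms nearest the minimum were miR-299a-5p, miR-379-3p and miR-487b-3p, with highest counts of 33, 36 and 40, and those just outside it were miR-380-3p and miR-666-5p, each with 28. In 10 arms every library was above the minimum, and in 3 arms only 1 library was.

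Total counts were 4992339 to 7833161 per library, so that 3 counts, the smallest number taken as a detectable level, corresponded to 0.383 to 0.601 CPM (counts scaled to a common library total). TMM factors, edgeR's correction for composition, ranged from 0.762 in L5, which stood apart, to 1.15. All levels below are CPM after TMM normalization unless stated otherwise, without correction for the length of the miRNA. The labelled tissue was checked against muscle miRNAs: miR-133a-3p had 89338 to 186111 counts per library and miR-133b-3p 20160 to 41678, whereas miR-1a-3p had only 62 to 171 and miR-206-3p 0 to 3. The counts of these muscle miRNAs thus differed by orders of magnitude. Whether counts of different miRNAs follow their relative amounts in the tissue was not tested, which limits comparisons between arms and hairpins below. Of the 6 neural miRNAs, miR-124-3p, miR-9-3p and miR-137-3p had at most 4 counts in any library, whereas miR-128-3p had 1024 to 2642, miR-138-5p 118 to 238 and miR-9-5p 16 to 48. The liver miRNA miR-122-5p had at most 1. In bulk muscle, fewer cells of a type and less RNA per cell cannot be told apart.

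The cluster was a small part of the muscle miRNome and was dominated by a few arms. Its 70 arms took 0.166 to 0.219% of the counts in control libraries and 0.0964 (L5) to 0.177% in LLC libraries. miR-411-5p was the most abundant arm, with a mean of 626 CPM over the 9 mice and rank 56 of the 304 expressed miRNAs. It was followed by miR-541-5p at rank 72, miR-381-3p at rank 81 and miR-410-3p at rank 86. These 4 arms held 39.3, 21.7, 15.0 and 11.5% of the summed CPM of the expressed arms, and together 85.7 to 89.3% in each mouse. The next arm, miR-300-3p, was at rank 153, and the least abundant, miR-379-3p, had a mean of 2.26 CPM, 278 times below miR-411-5p and last of the 304. Apart from the leading 4, 7 arms had means of 10 to 100 CPM and 12 had less than 10. The median of the arm means was 9.72 CPM, beside 34.2 CPM for all expressed miRNAs.

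**Figure D1:**
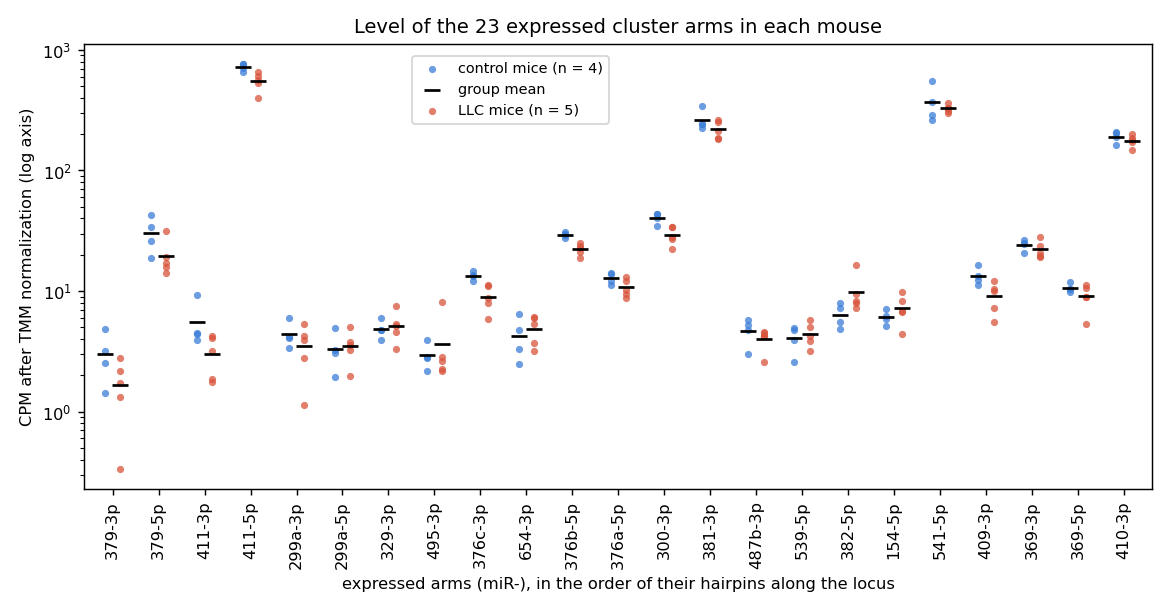
CPM after TMM normalization (log axis) of the 23 expressed arms in the order of their hairpins along the locus, with 1 point per mouse (4 control, 5 LLC) and a bar at the group mean. Only miR-411-5p, miR-381-3p, miR-541-5p and miR-410-3p are above 100 CPM, and the lowest mean is 2.26 CPM (miR-379-3p).

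Neighbouring hairpins differed widely in level. Mir379 and Mir411, whose starts are 1115 bp apart, had summed means over both arms of 26.6 and 630.5 CPM. At the other end, Mir541, Mir409, Mir412, Mir369 and Mir410 follow each other closely and had 345 CPM, 12.4 CPM, 0.200 CPM, 32.8 CPM and 183 CPM in that order. The 16 expressed arms upstream of Mirg held 63.2% of the summed CPM of the cluster, and the 7 within Mirg held 36.8%.

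Hairpin by hairpin, most of the counts came from a single arm, and which arm it was changed along the locus. Of the 29 hairpins with more than 32 counts in all libraries together, 9 had over 90% of their counts in the 5p arm, 11 had under 10%, and 9 lay between. Mir411 had 99.4% (95% Wilson interval 99.3 to 99.4%) of its counts in 5p, Mir376b 98.2% (97.4 to 98.7%), Mir376a 98.4% (97.2 to 99.1%) and Mir379 91.2% (89.7 to 92.5%). Mir382 had all of its 481 counts in 5p, an interval reaching down to 99.2%. The 3p arm dominated in Mir381, with 0.422% (0.328 to 0.543%) in 5p, in Mir300 with 0.682% (0.406 to 1.14%), in Mir376c with 0.769% (0.329 to 1.79%) and in Mir410, where 1 of 10907 counts came from 5p. The neighbours Mir376c, Mir376b and Mir376a thus used opposite arms, 3p in the first and 5p in the other two. Mir369 and Mir299a were the most even of the hairpins with both arms expressed, with 30.0% (28.0 to 32.1%) and 46.6% (41.9 to 51.3%) in 5p. In single mice the share of Mir299a ranged from 27.3 to 76.7%, over 427 counts in all. These intervals cover counting error only, since PCR copies of 1 molecule cannot be recognised here.

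**Figure D2:**
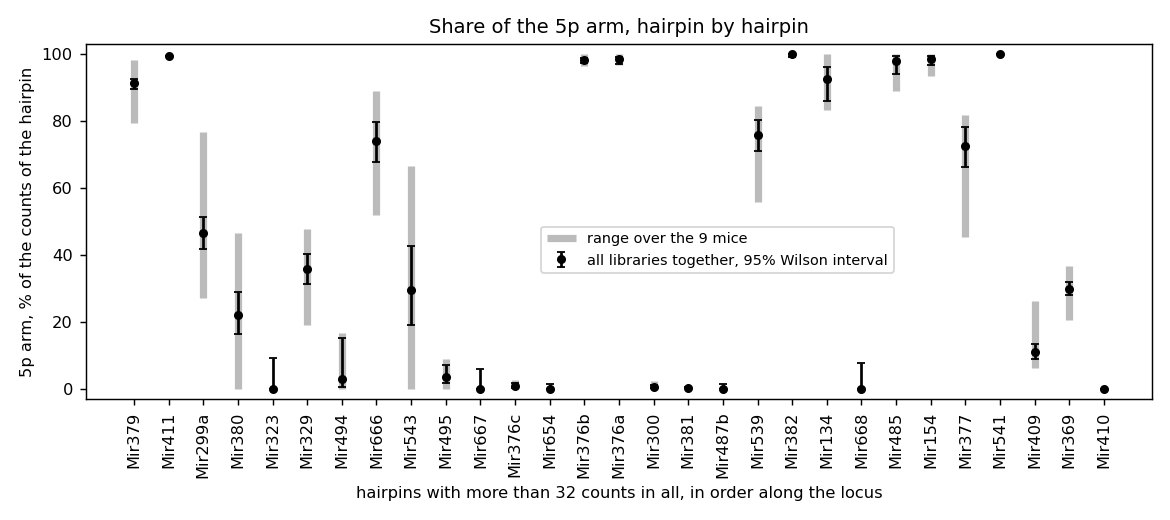
Share of each hairpin's counts that came from its 5p arm, in percent, for the 29 hairpins with more than 32 counts in all, in order along the locus. Points are all libraries together with the 95% Wilson interval, and grey bars span the mice with counts. Most hairpins sit above 90% or below 10%.

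The summed level of the cluster was lower in LLC mice on average, and the groups overlapped. Summed CPM over the 23 expressed arms was 1567, 1666, 1717 and 2124 in C1 to C4, and 1446, 1431, 1623, 1239 and 1535 in L1, L2, L3, L5 and L6. C4 was the highest and L5 the lowest, and L3 lay above C1. The means were 1768 ± 245 (SD, n = 4) and 1455 ± 143 (SD, n = 5), a log2 ratio of -0.28, which was not tested because it is a sum over chosen members. Without C4 the ratio was -0.18. In C4, 11 of the 23 arms were at their highest of the 9 mice and none at their lowest. In L5, 9 arms were at their lowest and 5 at their highest, and in L1 6 were at their lowest and 1 at its highest. The median arm stood at -0.41 (log2) against the control mean in L1, -0.36 in L5, -0.22 in L6, -0.17 in L3 and -0.15 in L2, and among the controls between -0.23 in C3 and 0.16 in C4.

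**Figure D3:**
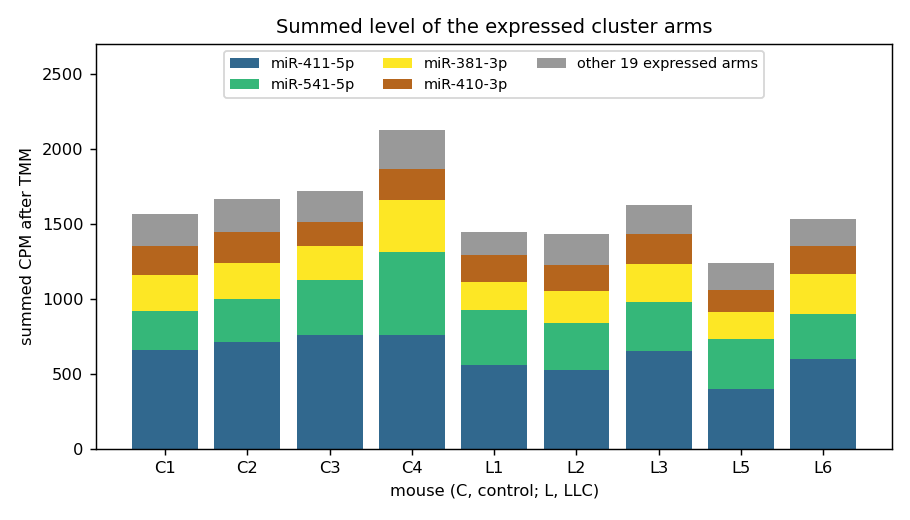
Summed CPM after TMM normalization of the 23 expressed arms in each mouse (C, control; L, LLC), stacked by the 4 most abundant arms and the other 19 together. C4 is highest at 2124 CPM and L5 lowest at 1239 CPM, and the 4 leading arms fill most of every bar.

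The comparison of LLC with control asked which arms differ in wasting muscle. Using the quasi-likelihood F test of edgeR, adjusted by Benjamini-Hochberg over all 304 expressed miRNAs, 0 of the 23 arms were called at an adjusted p of at most 0.05 and 1.5-fold, as were 0% of all expressed miRNAs. The smallest adjusted p was 0.172 (miR-300-3p) in the cluster and 0.0812 in the whole table. The study itself reported differentially expressed miRNAs from these samples at 1.5-fold and an FDR of 0.05. Its methods name DESeq2 and give the limit of 0.05 as a p-value, without naming an adjustment. At an unadjusted p of at most 0.05 there were 8 arms of 23, 7 of them lower and 1 higher in LLC, beside 16.4% of all expressed miRNAs (11.2% lower and 5.26% higher). DESeq2 called 0 of the 23 arms and 8 of all 304 miRNAs. Its filter gave no adjusted p to miR-299a-3p, miR-299a-5p, miR-379-3p, miR-411-3p and miR-495-3p, which therefore could not be called. Using limma with voom, 0 of the 23 arms and 0 of the 304 miRNAs were called. At the unadjusted p DESeq2 and voom each had 8 arms, beside 17.8% (DESeq2) and 15.1% (voom) of all expressed miRNAs. In edgeR's test there were 6 arms without L5, beside 11.5%, and 5 without L1, beside 10.2%. With the 1.5-fold limit added, 3 arms remained (miR-379-5p, miR-411-3p and miR-382-5p), beside 7.24%. The CPM of the groups did not overlap in 4 arms, all lower in LLC (miR-411-5p, miR-376c-3p, miR-376b-5p and miR-300-3p), beside 5.92% of all expressed miRNAs (4.28% lower and 1.64% higher in LLC). That count depended on the scaling, being 1 (miR-411-5p) with library totals alone and 2 (miR-376c-3p and miR-376b-5p) with RLE factors. The share over all expressed miRNAs was taken with TMM scaling only, so whether it moved likewise is not known here. In an exact two-sided permutation of the mice, not adjusted, the p was at most 0.05 for 5 of the 23 arms. Over all expressed miRNAs the share at that permutation p was 12.5%.

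Over the cluster, 16 arms had a log2-fold change below 0 and 7 above it, and the median was -0.21, against -0.02 for all expressed miRNAs, of which 53.6% were below 0. Without C4 the medians were -0.10 and -0.01. With library totals alone the median of all expressed miRNAs was -0.17 and that of the cluster -0.34, and 19 arms were below 0. All 11 arms with a mean of at least 10 CPM were below 0, with a median of -0.39, beside -0.04 for the 229 such miRNAs in the table. Of the 12 arms under 10 CPM, 5 were below 0 and 7 above, with a median of 0.09, beside 0.03 for 75 such miRNAs. This split was chosen after the values were seen. Along the locus, 11 of the 16 arms upstream of Mirg were below 0, with a median of -0.32, and 5 of the 7 within Mirg, with a median of -0.12. The difference between these stretches was not tested.

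**Figure D4:**
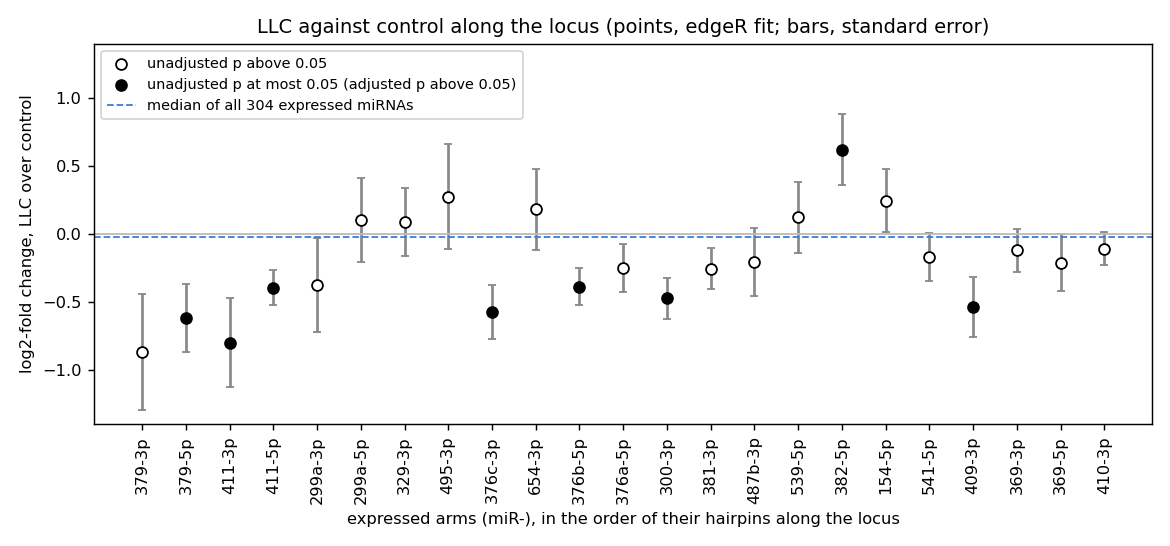
Fitted log2-fold change (LLC over control) with its standard error for the 23 expressed arms, in order along the locus. Filled points have an unadjusted p of at most 0.05 (8 arms), none passed adjustment, and the dashed line is the median of all 304 expressed miRNAs (-0.02).

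The locus opens with Mir379 (chr12:109709060-109709125) and Mir411 (chr12:109710175-109710256), which carry related sequences, and miR-379-3p, miR-411-3p and miR-379-5p had the lowest fitted values of the cluster. The fourth arm, miR-411-5p, stood at 657, 712, 761 and 761 CPM in C1 to C4 and at 562, 529, 653, 401 and 602 CPM in L1, L2, L3, L5 and L6. Every LLC mouse lay below every control, with L3 close to C1 and L5 far below the rest. The group means were 723 ± 49.1 (SD, n = 4) and 549 ± 95.2 (SD, n = 5), a log2-fold change of -0.40 (SE 0.131, edgeR adjusted p = 0.200, two-sided exact permutation p = 0.0159).

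miR-411-3p, the minor arm of the same hairpin, was at 3.93, 4.50, 4.43 and 9.29 CPM in controls and 1.86, 4.07, 4.25, 1.78 and 3.21 CPM in LLC mice. L2 and L3 overlapped with the controls, and C4 stood well above the other controls. Its log2-fold change was -0.80 (SE 0.328, edgeR adjusted p = 0.273, exact permutation p = 0.0635), and -0.45 without C4. miR-379-5p, the guide arm of its hairpin by counts, was at 19.0, 25.8, 33.8 and 42.5 CPM in controls and 17.2, 31.8, 19.0, 14.0 and 15.8 CPM in LLC mice. The SD of the controls was 33.5% of their mean, against 4.60% in miR-376b-5p and 10.6% in miR-300-3p, and L2 and L3 lay within the range of the controls, L3 just above C1. The log2-fold change was -0.62 (SE 0.252, edgeR adjusted p = 0.273, exact permutation p = 0.103), and -0.40 without C4.

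miR-379-3p had 2 to 36 counts per library, the fewest of the expressed arms, and it is on the study's own list of miRNAs, drawn from these samples, so its direction is not independent evidence. Its levels were 4.88, 2.52, 1.42 and 3.16 CPM in controls and 0.338, 2.77, 1.33, 2.17 and 1.72 CPM in LLC mice. The L1 value rests on 2 counts, under the detectable level, and the groups overlapped. The log2-fold change was -0.87 (SE 0.429, edgeR adjusted p = 0.296, exact permutation p = 0.175), the lowest in the cluster and between -1.12 and -0.51 (without C1) when single mice were left out.

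The middle stretch holds the miR-376 hairpins, Mir300 and Mir381. In 3 arms of this stretch, each from a different hairpin, every LLC mouse was below every control. miR-376c-3p (hairpin chr12:109722718-109722803) was at 13.7, 13.2, 12.2 and 14.6 CPM in controls and at 5.91, 11.2, 11.0, 8.69 and 8.02 CPM in LLC mice. The controls lay close together, and L1 was the lowest LLC mouse. Means were 13.4 ± 0.997 (SD, n = 4) and 8.98 ± 2.22 (SD, n = 5), with a log2-fold change of -0.58 (SE 0.198, edgeR adjusted p = 0.214, exact permutation p = 0.0238).

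miR-376b-5p (hairpin chr12:109723458-109723539) was at 29.4, 29.8, 27.4 and 30.6 CPM in controls and at 18.7, 23.0, 23.8, 21.1 and 25.1 CPM in LLC mice. Its gap between groups was clear under TMM and RLE scaling and closed with library totals alone. Means were 29.3 ± 1.35 (SD, n = 4) and 22.3 ± 2.48 (SD, n = 5), and the log2-fold change was -0.39 (SE 0.137, edgeR adjusted p = 0.214). The exact permutation p was 0.00794, unadjusted, the smallest that 126 splits of the mice can give. miR-376a-5p, from the next hairpin, showed means of 12.8 ± 1.42 (SD, n = 4) and 10.8 ± 1.82 CPM (SD, n = 5), and 3 LLC mice lay below all controls. Its log2-fold change of -0.25 (edgeR adjusted p = 0.425, exact permutation p = 0.0952) did not pass either test.

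miR-300-3p (hairpin chr12:109724313-109724391) was at 40.4, 43.6, 34.5 and 43.7 CPM in controls and at 27.0, 28.2, 33.9, 22.3 and 33.9 CPM in LLC mice. The groups were parted by a narrow gap, between C3 and the pair of L3 and L6. Means were 40.5 ± 4.29 (SD, n = 4) and 29.1 ± 4.94 (SD, n = 5), with a log2-fold change of -0.47 (SE 0.152, edgeR adjusted p = 0.172, exact permutation p = 0.0238). miR-381-3p (hairpin chr12:109726822-109726896), its near relative in sequence, was at 242, 242, 223 and 344 CPM in controls and 188, 214, 252, 183 and 263 CPM in LLC mice. L3 and L6 were within the control range and C4 was well above all other mice, and the log2-fold change of -0.26 (SE 0.152, edgeR adjusted p = 0.344, exact permutation p = 0.183) passed neither test and was -0.09 without C4. Per 100 counts of miR-381-3p there were 15.7 ± 2.27 (SD, n = 4) counts of miR-300-3p in controls and 13.2 ± 0.802 (SD, n = 5) in LLC mice, with an exact permutation p of 0.0714.

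Within Mirg, miR-382-5p (hairpin chr12:109733771-109733846) was the arm with the highest fold change and the only one higher in LLC mice at an unadjusted p of at most 0.05. It was at 4.88, 7.28, 5.49 and 7.90 CPM in controls and at 7.94, 8.31, 7.17, 16.6 and 9.51 CPM in LLC mice. L5 was far above the others, 4 LLC mice were above all controls and L3 was not. Means were 6.39 ± 1.44 (SD, n = 4) and 9.90 ± 3.83 (SD, n = 5), with a log2-fold change of 0.62 (SE 0.264, edgeR adjusted p = 0.284, exact permutation p = 0.0635) and of 0.38 without L5. miR-382-5p too is on the study's list drawn from these samples.

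miR-541-5p (hairpin chr12:109742409-109742498), the most abundant arm within Mirg, was at 263, 287, 368 and 555 CPM in controls and at 364, 312, 328, 330 and 300.1 CPM in LLC mice. The LLC mice lay inside the control range, which C4 widened, and the log2-fold change was -0.17 (SE 0.178, edgeR adjusted p = 0.599, exact permutation p = 0.730). Without C4 the sign turned, to 0.11. miR-409-3p (hairpin chr12:109743158-109743236) was at 16.5, 12.4, 11.2 and 13.2 CPM in controls and 7.26, 10.1, 12.1, 5.53 and 10.4 CPM in LLC mice. L3 was above C3 and the other 4 LLC mice were below all controls, with a log2-fold change of -0.54 (SE 0.221, edgeR adjusted p = 0.273, exact permutation p = 0.0397).

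At the end of the locus, miR-369-3p had means of 24.1 ± 2.48 (SD, n = 4) and 22.2 ± 3.85 CPM (SD, n = 5), a log2-fold change of -0.12 (SE 0.158, edgeR adjusted p = 0.680), between -0.22 (without L2) and -0.07 (without L1) when single mice were left out. miR-410-3p (hairpin chr12:109743715-109743795) had 189.9, 203, 162 and 209 CPM in controls and 177, 172, 201, 149 and 187 CPM in LLC mice. Only L5 lay below all controls, and the log2-fold change was -0.11 (SE 0.122, edgeR adjusted p = 0.632, exact permutation p = 0.341), between -0.18 (without C3) and -0.05 (without C4) when single mice were left out. The remaining 9 expressed arms had log2-fold changes between -0.38 (miR-299a-3p) and 0.27 (miR-495-3p), none with an unadjusted p of at most 0.05. The value of miR-495-3p rests on L5, at 8.09 CPM, where the other mice had 2.17 to 3.95 CPM.

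**Figure D5:**
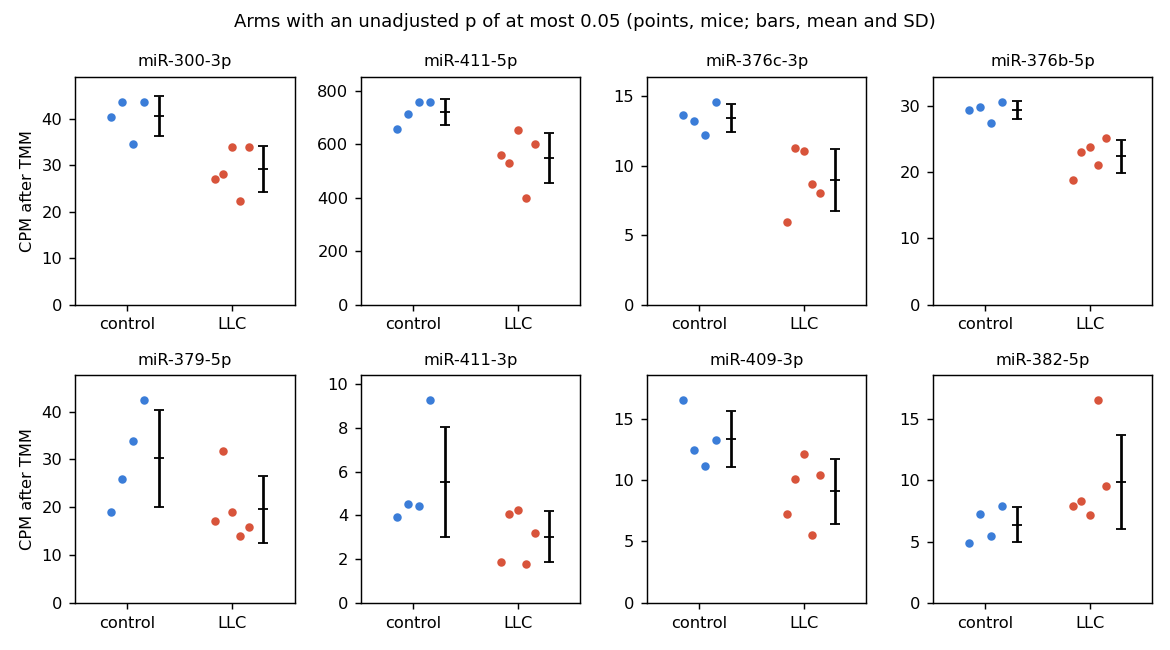
CPM after TMM normalization in each mouse for the 8 arms with an unadjusted p of at most 0.05 in edgeR's test, ordered by p, with the group mean and SD (4 control, 5 LLC). The groups do not overlap in miR-300-3p, miR-411-5p, miR-376c-3p and miR-376b-5p, and miR-382-5p is the only arm of the 8 that is higher in LLC mice.

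Whether the balance of 5p and 3p counts within a library differed between the groups was tested on hairpins with both arms expressed. Of 74 such hairpin names in the table, 0% passed an adjusted p of at most 0.05 in edgeR's test, and for 20.3% the unadjusted p was at most 0.05, none of them among the 4 of the cluster. For miR-411 the mean log2 ratio of 5p to 3p counts was 7.10 ± 0.506 (SD, n = 4) in controls and 7.53 ± 0.456 (SD, n = 5) in LLC mice, a fitted difference of 0.41 (SE 0.288, edgeR adjusted p = 0.376) that was 0.14 without C4. For miR-379 the difference was 0.30 (SE 0.491), for miR-299a 0.54 (SE 0.543) and for miR-369 -0.10 (SE 0.255). Each was smaller than 1.5 times its standard error.

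Other miRNAs of the Dlk1-Dio3 domain, upstream of or among the 35 hairpins, were measured in the same libraries. Of 40 listed arms 16 were expressed, of which 13 had a log2-fold change below 0 and 3 above, with a median of -0.33. At an unadjusted p of at most 0.05 there were 6, all lower in LLC: miR-127-3p (-0.36), miR-127-5p (-0.66), miR-136-5p (-0.32), miR-3071-3p (-0.68), miR-434-5p (-0.48) and miR-673-5p (-0.59). For all expressed miRNAs the share at that p was 16.4% (11.2% lower and 5.26% higher). None of the 16 was called, as were 0% of all expressed miRNAs, and their smallest edgeR adjusted p was 0.163. Only miR-127-3p had groups that did not overlap, beside 5.92% of all expressed miRNAs. Their summed level was 7270 ± 303 CPM (SD, n = 4) in controls and 6222 ± 556 CPM (SD, n = 5) in LLC mice, several times that of the 23 arms.

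Markers of other cells were set beside these differences. All 3 erythroid miRNAs (miR-451a, miR-144-3p and miR-144-5p) were lower in LLC at an unadjusted p of at most 0.05, their sum being 215 to 325 CPM in controls and 92.4 to 220 CPM in LLC mice. Of 5 leukocyte miRNAs, miR-223-3p was higher (log2-fold change 0.70) and miR-150-5p lower (-0.38) at that p, and the list's sum was 691 to 800 CPM in controls and 583 to 742 CPM in LLC mice. Of the 3 stromal miRNAs, miR-199a-5p was lower (-0.33), with sums of 1939 to 2371 CPM and 1759 to 3300 CPM. The endothelial miR-126a-3p was lower too (-0.31), 1 of 2 on its list, whose sums were 26211 to 33929 CPM in controls and 24162 to 29972 CPM in LLC mice. None of the 3 expressed neural miRNAs of 6 had such a p, with sums of 252 to 388 CPM and 231 to 333 CPM. Nor had any of the 5 expressed muscle fibre miRNAs of 6, of which 4 were lower and 1, miR-486a-5p (0.20), higher in LLC. Their sums were 77613 to 102496 CPM and 85383 to 125067 CPM. Most of these sums came from miR-486a-5p, with 400176 to 559151 counts per library. The 2 of smooth muscle had no such p either, with sums of 49377 to 65094 CPM and 50948 to 94775 CPM. None of the 23 expressed markers was called, and the part of these cells in the values of the cluster was not tested.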

How the data were processed

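Total RNA of TA muscle was made into libraries with the TruSeq Small RNA kit and sequenced as single-end 50 b reads on an Illumina HiSeq. With Bowtie, the authors aligned reads against mature miRNAs of miRBase 21, allowing 0 mismatches in the first 8 bases and keeping all best alignments. What they deposited for each library is a raw count of every mature miRNA. The counting tool for miRNAs is not given in the sources used here. A read with several equally good matches is counted at each.

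Counts were tested with edgeR 4.0.16 in R 4.3.3 (quasi-likelihood F test, TMM factors, no block) over the 304 expressed miRNAs, and p-values were Benjamini-Hochberg adjusted over all of them. Single arms were also tested by exact two-sided permutation of log2 CPM (prior count 2) over all 126 splits of the 9 mice, without adjustment. The balance of arms was fitted with the library as a block. Alternatives were DESeq2 1.42.0, limma 3.58.1 with voom, RLE factors, library totals alone or without the 5 miRNAs of highest abundance, other filters, a replicate block and leaving out each mouse. Groups came from the sample labels. Hairpin positions came from GENCODE M21 on GRCm38 and matched RefSeq for 33 of 35 hairpins, the other 2 being absent from the RefSeq table. Figures used Python 3.11 and matplotlib 3.10.9. The tests were also run on simulated data, and the outcome is not given here.

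Arms named were the 10 most abundant, those with an unadjusted p of at most 0.05, those with the highest and lowest fold change, those whose groups did not overlap, and miR-379-3p and miR-382-5p, which made 14. The members, lists and naming rule were chosen with earlier results of these data known.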

Additional observations from a re-analysis of the deposited data

Results flagged for a closer look

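Within groups, 56 sets of values were searched for a mouse far from the others by Dixon's test, and 7 were found. In each of the 2 groups, the sets were the levels of 23 arms, their sum and the log2 5p to 3p ratios of 4 hairpins. Chance alone gives about 1 in 20 for independent, normally distributed sets. These sets share the same mice and are not independent, so an excess over chance was not measured. C4 was high for miR-411-3p, at 9.29 CPM where the other controls had 3.93 to 4.50 CPM, and for miR-381-3p, at 344 CPM where the others had 223 to 242 CPM. In the same mouse the log2 ratio of miR-411-5p to miR-411-3p counts was low, at 6.34 beside 7.28 to 7.40. L5, the library with the lowest TMM factor, was high for miR-495-3p, at 8.09 CPM beside 2.20 to 2.87 CPM in the other LLC mice, and for miR-382-5p, at 16.6 CPM beside 7.17 to 9.51 CPM. It was low for miR-487b-3p, at 2.57 CPM beside 4.22 to 4.59 CPM. L2 was high for miR-379-5p, at 31.8 CPM beside 14.0 to 19.0 CPM. The causes were not tested.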

How the results depend on the processing

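Without a filter, 58 arms of the cluster were tested, 1 was called (miR-379-5p, log2-fold change -0.59, edgeR adjusted p = 0.0364) and 14 reached an unadjusted p of at most 0.05, beside 22 called and 9.76% at that p of all 932 miRNAs tested. All other alternatives called 0 arms, though DESeq2 gave some arms no adjusted p. Of all expressed miRNAs, 8 were called with DESeq2, 8 without L3 and 1 without L1. The number at an unadjusted p of at most 0.05 was 5 to 9 when single mice were left out, beside 9.87 to 24.3% of all expressed miRNAs. It was 5 without L1, beside 10.2%, and 9 without L2, beside 22.4%. With a replicate block it was 0, beside 4.93%, and the cluster median was -0.12. Only C1 to C3 and L1 to L3 share a number, so C4, L5 and L6 did not inform the comparison with the block. No pairing of the mice by number was seen, though 3 same-numbered pairs are too few to decide. These pairs had correlations of -0.249 to -0.0899, and 0 controls correlated best with their own number. miR-300-3p, miR-411-5p, miR-376c-3p and miR-376b-5p kept an unadjusted p of at most 0.05 in 17 of 18 alternatives, all but the block. miR-379-5p lost it in 6 of 18, miR-382-5p in 5 of 18, miR-411-3p in 4 of 17 and miR-409-3p in 3 of 18. Arms without overlap numbered 1 with library totals alone and 2 with RLE factors, both alternatives chosen after seeing the data. For these scalings the share over all expressed miRNAs was not taken. miR-541-5p turned to 0.14 with the block and to 0.11 without C4 (range without single mice -0.30 to 0.11), the balance of miR-369 to 0.0303 without L5 (range -0.247 to 0.0303) and that of miR-379 to -0.259 without C1 (range -0.259 to 0.603). The balance of miR-411 was 0.14 to 0.55 (0.14 without C4) and that of miR-299a 0.19 to 0.95 (0.19 without L6, 0.95 without L3). The cause of these changes was not tested. The cluster median stayed between -0.29 and -0.10 without single mice, and the log2 ratio of the sums was -0.41 with library totals alone and -0.34 to -0.18 without single mice (-0.18 without C4). Arms under 10 CPM rest on few counts, down to 2 in a library.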
